A study of Mus musculus with 16 samples.

Results

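A set of 6 genes that set the fate of pyruvate and lactate were followed in fibroblasts of the mouse dermis, cells that make the skin's connective tissue: the lactate dehydrogenase subunits Ldha and Ldhb, the lactate carriers Slc16a1 and Slc16a3, and the pyruvate dehydrogenase kinases Pdk1 and Pdk4. They were selected by gene symbol, each through its brightest probe set (by the mean of the 16 arrays), out of 17097 genes with a probe set of their own. The list was drawn up with 2 results of these data known, the higher level of Ldhb in old than in young freshly isolated cells and the higher level of Slc16a3 in cultured than in fresh cells. Those values are therefore given as description, without a test, and so is every other comparison of Ldhb that uses freshly isolated cells. Of the 6 genes, 5 passed the filter on dim genes (at least 4 of 16 arrays above a log2 intensity of 3.87) and were tested among 14819 genes; Pdk4 did not pass it.

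The arrays fall into 4 groups of 4: cultured fibroblasts from old mice (18 months), cultured fibroblasts from young mice (2 months), fibroblasts profiled directly after isolation from old mice, and the same from young mice. The labels call the directly profiled cells in vivo. All mice were female and of the C57Bl/6 strain, the labels give no genotype or treatment beyond age and culture, and each of the 8 mice gave 5000 cells to both conditions. The sources used here give neither the isolation method nor the time in culture, the passage number or the medium, and tie no sample to a mouse or to a collection day. All 10 listed fibroblast markers averaged above 4.34, the 95th percentile of control probe sets, in every group, but 9 of 10 were called lower with culture at each age. Col1a1, a collagen chain, was at 12.21 in old cultured, 12.2 in young cultured, 12.46 in old in vivo and 12.58 in young in vivo cells. Lum, a matrix proteoglycan, differed more, at 6.83 in old cultured, 7.23 in young cultured, 11.65 in old in vivo and 11.68 in young in vivo cells. Pdgfra, a growth factor receptor, averaged only 4.63 to 5.05. In bulk samples, fewer cells of a type and less RNA per cell cannot be told apart.

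Lactate dehydrogenase is a tetramer of A and B subunits that interconverts pyruvate and lactate and, with them, NADH and NAD+. Tetramers rich in the A subunit are known for turning pyruvate into lactate in glycolytic cells, and those rich in the B subunit for turning lactate back into pyruvate in oxidative tissue. The carriers move lactate across the plasma membrane together with a proton. The kinases phosphorylate and thereby switch off pyruvate dehydrogenase, the complex that feeds pyruvate into the mitochondrial citric acid cycle. Values below are deposited log2 intensities of RMA, a procedure that equalises the distribution of values over arrays. Every difference is therefore one relative to the rest of the array, and the levels of different probe sets are not on a common scale.

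Ldha, on chromosome 7 (46842274 to 46855627 in assembly GRCm38.p6), was higher in cultured than in freshly isolated cells at both ages, and no age difference passed the test. Its log2 intensity was 11.95, 11.87, 11.96 and 11.98 in old cultured, 11.92, 11.87, 11.96 and 12.01 in young cultured, 10.73, 10.49, 10.8 and 10.52 in old in vivo, and 10.58, 10.56, 10.5 and 10.53 in young in vivo cells. Every cultured array lay above every in vivo array, while the ages overlapped within both conditions. The gene rose 2.47-fold with culture in old cells (log2 change 1.31 ± 0.08, SE, n = 4 per group, limma adjusted p = 3.89e-10) and 2.63-fold in young cells (1.40 ± 0.08, limma adjusted p = 1.49e-10). In comparison, 30.2% of all tested genes were called higher with culture in old cells and 32.6% in young cells, at an adjusted p below 0.05. Groups without overlap, cultured above in vivo, were found for 27.6% of the tested genes in old cells and 30.6% in young cells. The old minus young difference was 0.09 ± 0.10 in vivo (95% interval -0.13 to 0.32, limma adjusted p = 0.721) and 0.00 ± 0.06 in culture (-0.13 to 0.13, limma adjusted p = 1).

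Ldhb, on chromosome 6 (142490249 to 142507957), behaved differently: culture was associated with a lower level in old cells and a higher level in young cells. The array values were 7.54, 7.18, 7.39 and 7.15 in old cultured, 6.80, 6.79, 6.93 and 7.32 in young cultured, 8.25, 8.20, 8.17 and 7.96 in old in vivo, and 6.03, 6.24, 6.23 and 6.62 in young in vivo cells. The groups ran, from high to low, old in vivo, old cultured, young cultured and young in vivo. The 2 cultured groups overlapped, and no other neighbours in that order did. Old in vivo cells thus stood 3.64-fold above young in vivo cells (log2 difference 1.87 ± 0.13, SE of the fit to the 8 in vivo arrays). It was the 15th largest difference of either sign among the 14819 genes, but the gene was listed with this difference known, so the rank is no evidence. Groups that did not overlap, with old above young in vivo, were found for 5.8% of the tested genes, and 0.911% were called higher at an adjusted p below 0.05. Cultured minus in vivo was -0.83 ± 0.14 in old cells and 0.68 ± 0.14 in young cells. In old cells 30.5% of all tested genes had groups without overlap with cultured below in vivo.

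In culture the age difference of Ldhb was 0.36 ± 0.13 with a 95% interval of 0.05 to 0.66 (unadjusted p = 0.0262, limma adjusted p = 0.997), so it did not pass the threshold. The cultured values were not used to choose the gene, but they came from the same mice as the in vivo values that were. This and every later comparison of Ldhb in culture is therefore not independent of that choice. No gene passed in that comparison (0% of 14819 tested by limma, and 0 under each alternative run), and 533 genes, 3.6% of those tested, had an unadjusted p below 0.05. Set against the in vivo age difference, that in culture was different by -1.51 ± 0.20 on the log2 scale, given as a description. Of all tested genes, 0.391% were called lower in this interaction at an adjusted p below 0.05.

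**Figure D1:**
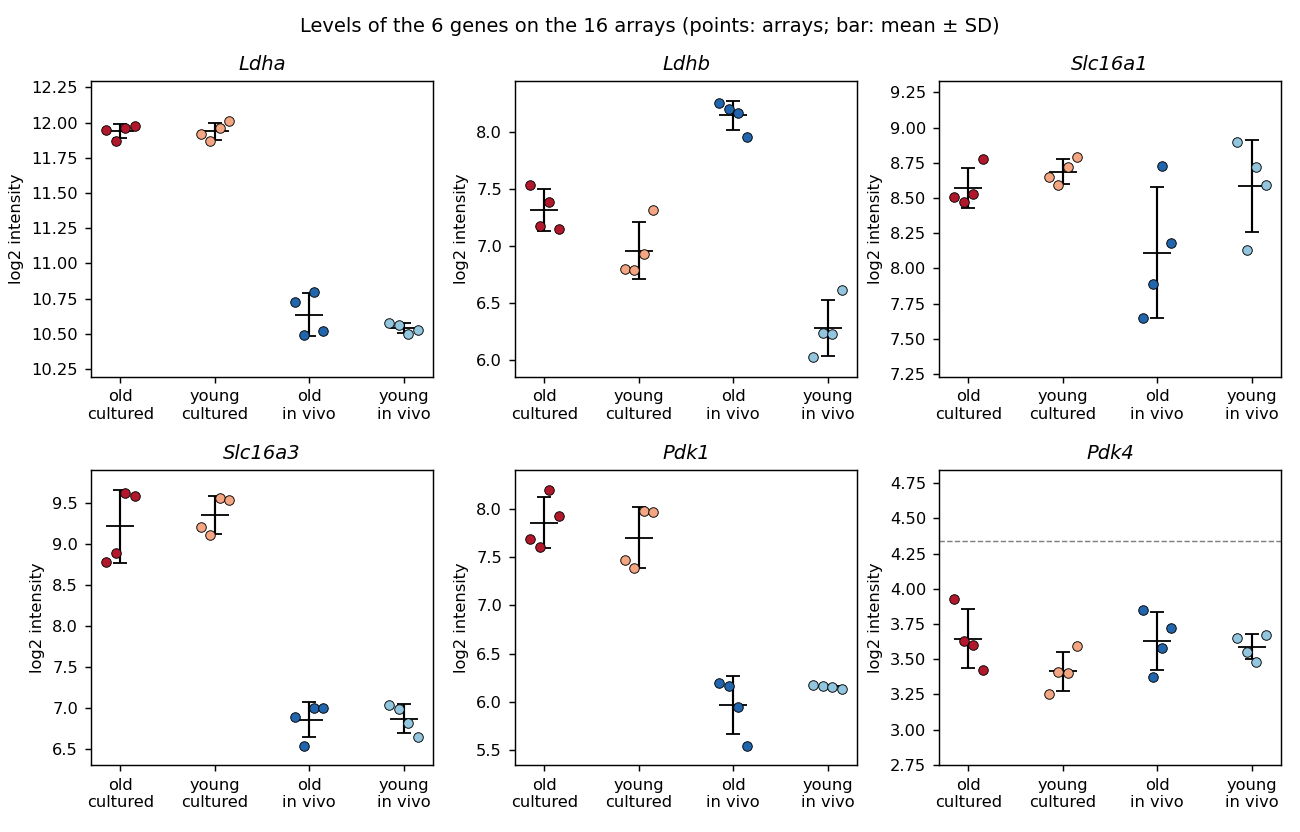
Log2 intensity of the 6 genes (vertical axes) on each of the 16 arrays, grouped along the horizontal axis, with the mean and SD of each group (n = 4). Ldha, Slc16a3 and Pdk1 separate cultured from in vivo arrays, Ldhb is highest at 8.15 in old in vivo and lowest at 6.28 in young in vivo cells, and Pdk4 stays below the dashed line at 4.34, the 95th percentile of control probe sets.

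A second probe set of Ldhb gave the same order of groups. It read 7.53, 7.21, 7.32 and 7.05 in old cultured, 6.79, 6.80, 6.86 and 7.18 in young cultured, 8.16, 7.94, 7.85 and 7.80 in old in vivo, and 5.79, 5.63, 6.06 and 6.24 in young in vivo cells. Its name carries the manufacturer's mark for probes that can also match other transcripts. In a fit over all 24235 single-gene probe sets past the same filter, it differed between the ages by 2.01 ± 0.15 in vivo and 0.37 ± 0.12 in culture (unadjusted p = 0.0134, limma adjusted p = 0.998), and with culture by -0.66 ± 0.14 in old and 0.98 ± 0.14 in young cells.

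The balance between both subunits was followed as Ldha minus Ldhb on each array, on the log2 scale. Its zero has no meaning, since it compares different probe sets, but its differences between groups do not depend on that. The balance was 4.41, 4.69, 4.57 and 4.83 in old cultured, 5.12, 5.08, 5.03 and 4.69 in young cultured, 2.48, 2.29, 2.63 and 2.56 in old in vivo, and 4.55, 4.32, 4.27 and 3.91 in young in vivo cells. Old in vivo cells stood apart below all other groups. The old in vivo mean was 2.49 ± 0.15 (SD, n = 4), against 4.26 ± 0.26 in young in vivo cells, a difference of -1.77 ± 0.15 (SE). With culture the balance was higher by 2.14 ± 0.12 in old cells, 4.39-fold on the linear scale, and by 0.72 ± 0.16 in young cells, 1.64-fold, with no overlap between cultured and in vivo arrays at either age. These 3 differences contain the in vivo values of Ldhb and are description.

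In culture the age difference of the balance was -0.36 ± 0.13, with means of 4.63 ± 0.18 in old and 4.98 ± 0.20 in young cells (SD, n = 4). The ages overlapped between 4.69 and 4.83, and the exact two-sided permutation test gave p = 0.0857. Benjamini-Hochberg adjustment together with the culture comparisons of the balance, which are description, could not change this value, because it is the largest of that set. With 4 arrays against 4 the smallest p that this test can give is 0.0286. The cultured cells came from the mice whose in vivo values led to the choice of Ldhb, so this test is not independent of that choice. Measured with the second Ldhb probe set, the difference was -0.37 ± 0.12 (exact permutation p = 0.0571). With that probe set the cultured and in vivo arrays of young mice overlapped, with a difference of 0.42 ± 0.16. The change of balance with culture was larger in old than in young cells by 1.42 ± 0.20, and by 1.55 ± 0.22 with the second probe set, both without a test.

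**Figure D2:**
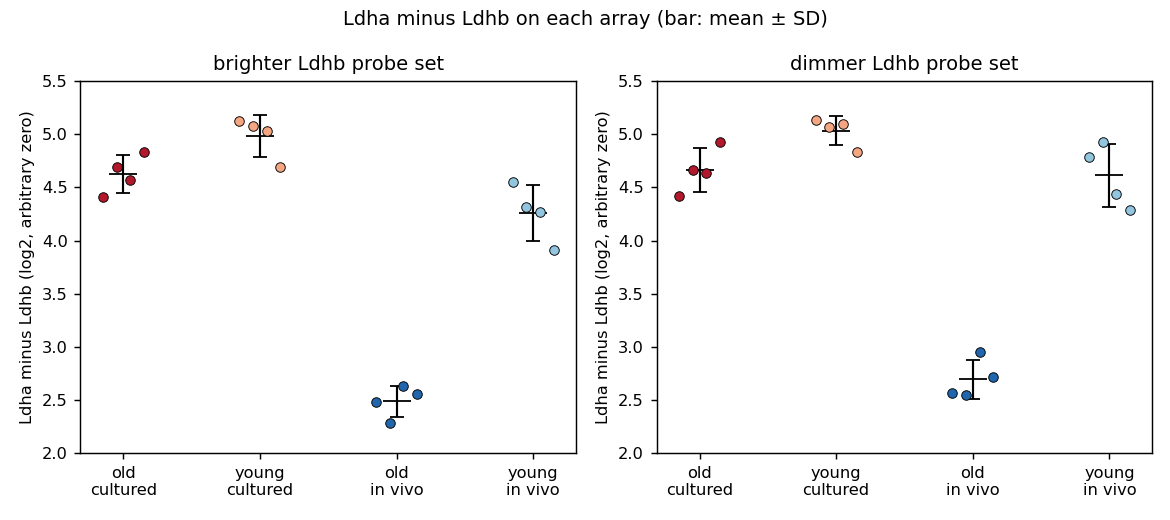
Ldha minus Ldhb (vertical axes, log2, arbitrary zero) on each array by group, with Ldhb read from its brighter probe set (left) and its dimmer probe set (right); bars are mean and SD, n = 4. The old in vivo arrays lie between 2.29 and 2.63 on the left, below the 12 other arrays.

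Slc16a3, known as MCT4 and as the lactate exporter of glycolytic cells, lies on chromosome 11 (120948484 to 120959000). It read 8.78, 8.89, 9.62 and 9.59 in old cultured, 9.21, 9.11, 9.56 and 9.54 in young cultured, 6.89, 6.54, 7.0 and 7.0 in old in vivo, and 7.03, 6.99, 6.81 and 6.64 in young in vivo cells. All cultured arrays lay above all in vivo arrays, as they did for 27.6% of all tested genes in old and 30.6% in young cells. Cultured minus in vivo was 2.36 ± 0.18 in old and 2.49 ± 0.18 in young cells, or 5.14-fold and 5.61-fold, given as description. The age differences, which were tested, were -0.01 ± 0.13 in vivo (95% interval -0.31 to 0.29, limma adjusted p = 0.981) and -0.14 ± 0.21 in culture (-0.60 to 0.33, limma adjusted p = 0.997). The interaction (change with culture in old minus that in young cells) was -0.13 ± 0.26 (95% interval -0.68 to 0.43, limma adjusted p = 0.881).

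Slc16a1, known as MCT1, is the widely expressed carrier that can both import and export lactate, and lies on chromosome 3 (104638664 to 104658462). Its values were 8.51, 8.47, 8.53 and 8.78 in old cultured, 8.65, 8.59, 8.72 and 8.79 in young cultured, 7.65, 7.89, 8.73 and 8.18 in old in vivo, and 8.9, 8.13, 8.72 and 8.59 in young in vivo cells. All 4 groups overlapped with their neighbours in level, and the in vivo arrays were more scattered (SD 0.47 in old and 0.33 in young) than the cultured arrays (0.14 in old and 0.09 in young). It rose 1.38-fold with culture in old cells (0.46 ± 0.19, limma adjusted p = 0.0432), while cultured minus in vivo in young cells was 0.10 ± 0.19 (95% interval -0.30 to 0.50, limma adjusted p = 0.631). The old-cell call did not hold with arrays scaled to their 75th percentile (0.30, limma adjusted p = 0.148), after cyclic loess (0.20, limma adjusted p = 0.369), with no filter (0.46, limma adjusted p = 0.0503), with the mean over probe sets (0.18, limma adjusted p = 0.158) and without 7 of the 8 arrays in turn (limma adjusted p = 0.0552 to 0.156). Without old in vivo replicate 3, the highest of its group, it was 0.67 (limma adjusted p = 0.00194). The difference in young cells turned negative after scaling (-0.14), after loess (-0.25), with the mean over probe sets (-0.03) and without young in vivo replicate 2 (-0.05). The interaction was 0.36 ± 0.27 (95% interval -0.21 to 0.92, limma adjusted p = 0.637).

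Old minus young for Slc16a1 was -0.47 ± 0.23 in vivo (95% interval -0.98 to 0.04, limma adjusted p = 0.375) and -0.12 ± 0.08 in culture (-0.30 to 0.07, limma adjusted p = 0.997). A second probe set of the gene read 3.68 to 4.25 over the 16 arrays, below 4.34, the 95th percentile of 12 bacterial control probe sets, and enters the mean over probe sets above with equal weight.

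Pdk1, on chromosome 2 (71873215 to 71903858), encodes a kinase that inhibits pyruvate dehydrogenase and is a known target of the hypoxia-inducible factor HIF. It read 7.69, 7.61, 8.2 and 7.93 in old cultured, 7.47, 7.39, 7.98 and 7.97 in young cultured, 6.2, 6.17, 5.95 and 5.55 in old in vivo, and 6.18, 6.17, 6.16 and 6.14 in young in vivo cells. Cultured and in vivo arrays did not overlap, and the ages did. Cultured above in vivo without overlap was found for 27.6% of all tested genes in old and 30.6% in young cells. Of all tested genes 30.2% were called higher with culture in old and 32.6% in young cells. Pdk1 rose 3.71-fold with culture in old cells (1.89 ± 0.17, limma adjusted p = 3.84e-08) and 2.91-fold in young cells (1.54 ± 0.17, limma adjusted p = 3.79e-07). The interaction was 0.35 ± 0.23 (95% interval -0.14 to 0.84, limma adjusted p = 0.585), so the change with culture was not called different between the ages. Old minus young was -0.20 ± 0.14 in vivo (95% interval -0.51 to 0.12, limma adjusted p = 0.571) and 0.16 ± 0.17 in culture (-0.24 to 0.55, limma adjusted p = 0.997).

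The size of the culture change of Pdk1 depended on the probe set. A probe set that lay lower in vivo, at 4.27 to 5.37 in old and 4.14 to 5.0 in young cells, changed by 3.52 ± 0.23 in old and 3.83 ± 0.23 in young cells (limma adjusted p = 8.49e-10 and 2.56e-10 over all probe sets). On it, 1 of 4 old and 2 of 4 young in vivo arrays lay at or below 4.34. The third probe set changed by 1.87 ± 0.23 in old and 1.76 ± 0.23 in young cells. All 3 probe sets rose with culture, and none passed the threshold for age or for the interaction. On the probe set that lay lower in vivo, the interaction was negative (-0.315 ± 0.32, limma adjusted p = 0.765).

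**Figure D3:**
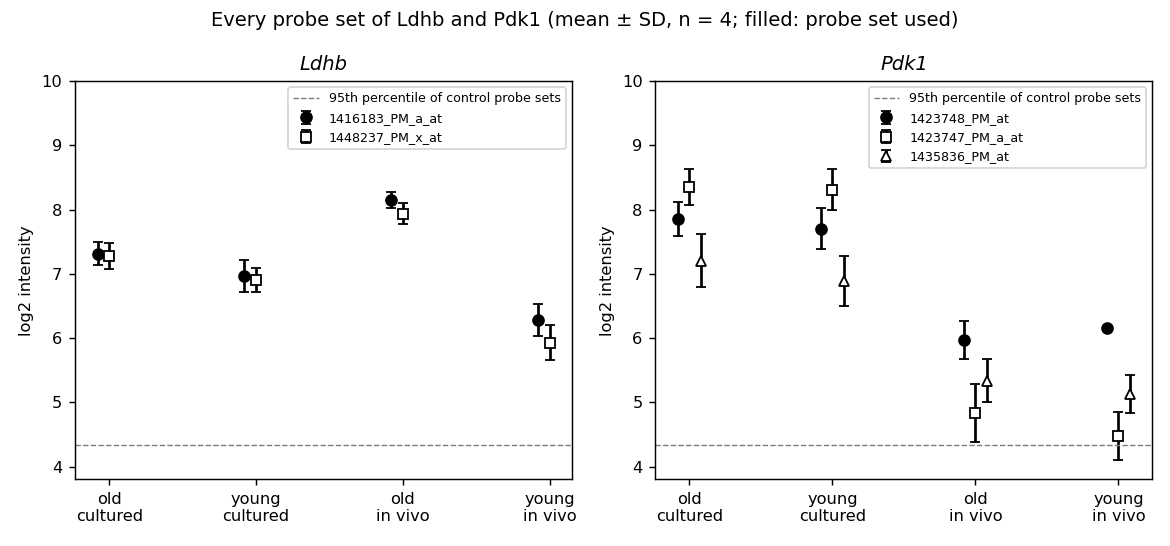
Mean log2 intensity and SD (n = 4, vertical axes) of the 2 probe sets of Ldhb and the 3 probe sets of Pdk1 in each group; filled symbols mark the probe set used. Both Ldhb probe sets are highest in old in vivo cells, and all 3 Pdk1 probe sets are higher in the cultured than in the in vivo groups, with 1 of them at 4.84 in old and 4.47 in young in vivo cells, near the dashed line at 4.34.

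Within the cultured cells, replicates 3 and 4 lay above replicates 1 and 2 at both ages for Ldha, Slc16a1, Slc16a3 and Pdk1. Ldhb had this order in young but not in old cultured cells (7.54, 7.18, 7.39 and 7.15), and Pdk4 had it at neither age. In old cultured cells, for example, Slc16a3 read 9.62 and 9.59 against 8.78 and 8.89. The margin could be small, as with 11.96 and 11.98 against 11.95 and 11.87 for Ldha in old cultured cells. The third Pdk1 probe set broke the order in old cultured cells, with 7.16 in replicate 4 and 7.18 in replicate 2. The order was seen after the fact and the share of all tested genes with it was not computed, so it cannot be read as a trait of these genes. Replicates were numbered in the order of deposition, and the labels do not say what samples of the same number have in common.

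Pdk4, on chromosome 6 (5483351 to 5496278), encodes the kinase that is known to be induced by fasting and by glucocorticoids. Its probe set lay below 4.34, the 95th percentile of the control probe sets, on all 16 arrays. It read 3.93, 3.63, 3.6 and 3.42 in old cultured, 3.25, 3.41, 3.4 and 3.59 in young cultured, 3.85, 3.37, 3.58 and 3.72 in old in vivo, and 3.65, 3.55, 3.48 and 3.67 in young in vivo cells. Only 1 of 16 arrays passed 3.87. With the filter removed, the differences lay between -0.18 ± 0.12 (culture in young, limma adjusted p = 0.190) and 0.23 ± 0.11 (age in culture, limma adjusted p = 0.997), and no fold change is given for levels in this range.

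**Figure D4:**
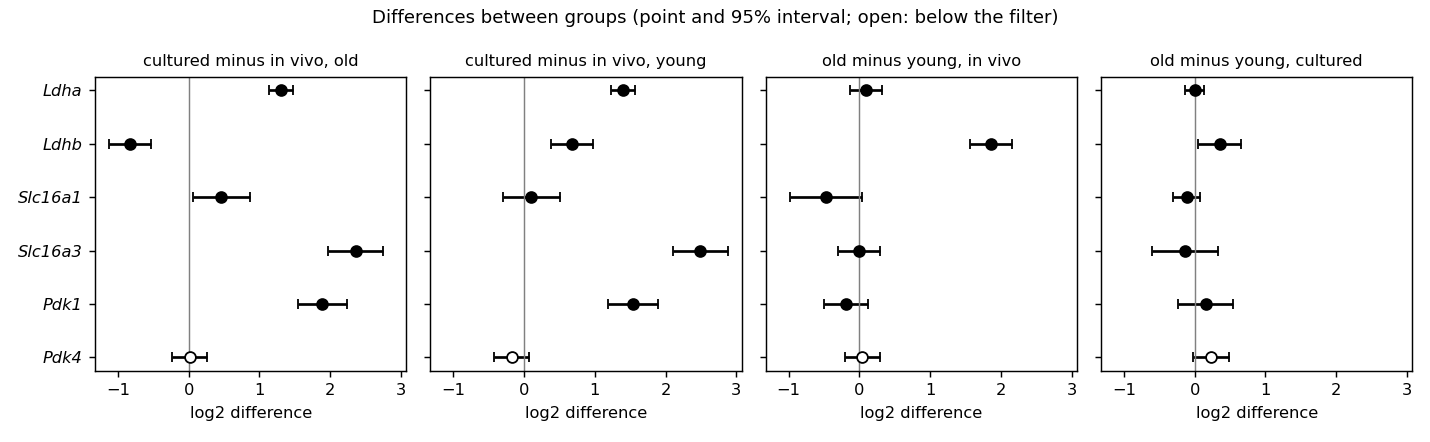
Log2 differences (horizontal axes) of the 6 genes for culture at each age and for age in each condition, with 95% intervals of the limma fit; the open symbol is Pdk4, which lay below the filter. Ldhb differs in sign between the ages for culture (-0.83 in old, 0.68 in young) and has the age difference of 1.87 in vivo.

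Promoter sequences are shown for the 3 genes that were higher in culture at both ages, Ldha, Slc16a3 and Pdk1, and for Ldhb, which was not. Each runs 5′ to 3′ on the gene's strand from 250 bases before to 50 bases after the start in RefSeq, assembly GRCm38.p6, and all 6 genes matched the table. The windows are chr7:46845554-46845853 (plus strand) for Ldha, chr11:120948817-120949116 (plus strand) for Slc16a3, chr2:71872974-71873273 (plus strand) for Pdk1 and chr6:142507908-142508207 (minus strand) for Ldhb. For Ldha and Pdk1, each with 2 listed starts, the upstream of the listed starts was taken. The windows of Ldha and Slc16a3 lie wholly inside the gene spans given above, so they are not at the 5′ end of those spans. Capitals mark ACGTG and GCGTG, the core letters to which HIF is known to bind, on either strand.
Ldha: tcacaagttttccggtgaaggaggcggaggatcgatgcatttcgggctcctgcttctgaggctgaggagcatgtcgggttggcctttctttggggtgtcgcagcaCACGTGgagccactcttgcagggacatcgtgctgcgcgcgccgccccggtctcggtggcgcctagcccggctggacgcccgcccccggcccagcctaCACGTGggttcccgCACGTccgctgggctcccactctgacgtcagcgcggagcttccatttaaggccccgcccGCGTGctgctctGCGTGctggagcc
Slc16a3: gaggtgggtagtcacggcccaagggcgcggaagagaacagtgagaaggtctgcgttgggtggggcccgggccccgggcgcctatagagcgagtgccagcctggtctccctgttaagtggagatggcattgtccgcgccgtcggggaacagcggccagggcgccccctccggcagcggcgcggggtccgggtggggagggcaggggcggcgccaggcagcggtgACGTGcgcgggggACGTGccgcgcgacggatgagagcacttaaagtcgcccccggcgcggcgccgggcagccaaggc
Pdk1: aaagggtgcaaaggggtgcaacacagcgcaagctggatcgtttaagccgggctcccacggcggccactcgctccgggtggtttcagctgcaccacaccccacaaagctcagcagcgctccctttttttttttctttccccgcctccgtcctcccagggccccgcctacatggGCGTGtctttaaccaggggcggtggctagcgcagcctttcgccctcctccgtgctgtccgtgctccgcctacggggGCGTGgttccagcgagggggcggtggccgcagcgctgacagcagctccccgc
Ldhb: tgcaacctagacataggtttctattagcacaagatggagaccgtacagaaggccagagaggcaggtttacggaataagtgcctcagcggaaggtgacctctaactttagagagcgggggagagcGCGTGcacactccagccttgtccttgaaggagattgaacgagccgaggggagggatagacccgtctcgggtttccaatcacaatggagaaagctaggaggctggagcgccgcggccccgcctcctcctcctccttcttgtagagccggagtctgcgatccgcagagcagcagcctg
Matches were counted on both strands, so the palindrome CACGTG counts as 2. Ldha held 7 matches, Slc16a3 and Pdk1 held 2 each, and Ldhb held 1. Among 32851 promoter windows of the same length, 43.8% held at least 1 match, 20.6% at least 2 and 0.301% at least 7. The windows also differ in base composition, with 30 CG pairs in Ldha, 36 in Slc16a3, 25 in Pdk1 and 17 in Ldhb, against a median of 7 over all windows. Slc16a1 held 5 matches and 42 CG pairs, and Pdk4 held 1 match and 12 CG pairs. These letters are a description of the windows and say nothing about binding in these cells.

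The surrounding pathway was described with 10 lists, of which 107 of 128 genes were tested, the 5 tested members among them. Of the other 102 genes, 48 were called higher and 29 lower with culture in old cells, and 51 higher and 25 lower in young cells. Over all tested genes 30.2% were called higher and 32.5% lower in old cells, and 32.6% higher and 38.6% lower in young cells. Of all calls, 48.1% were higher in old and 45.8% in young cells, against 34.2% in old and 31.4% in young cells with 75th-percentile scaling, under which the median over all tested genes shifted by -0.16 in old and -0.24 in young cells. For age in vivo limma called 0 of these 102 genes, in a comparison where 1.35% of all genes were called, and 26 had an unadjusted p below 0.05 (25.5%, against 15% of all genes). In the interaction 0 of the 102 were called, where 0.587% of all genes were, and 22 had an unadjusted p below 0.05 (21.6%, against 12.3% of all genes). For age in culture 0 were called, and 3 had an unadjusted p below 0.05.

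Among relatives of the dehydrogenases and carriers, Slc16a7, a high-affinity carrier known as MCT2, fell with culture (log2 change -1.57 ± 0.23 in old and -1.44 ± 0.23 in young cells). Nptn, a membrane chaperone of these carriers, rose by 1.07 ± 0.17 in old and 1.69 ± 0.17 in young cells, and Emb, another chaperone, by 0.24 ± 0.08 in old and 0.34 ± 0.08 in young cells. The calls of Emb were lost with 75th-percentile scaling (0.08 in old and 0.10 in young cells) and with loess (-0.03 in old and -0.02 in young cells). Bsg, the chaperone that brings both carriers to the membrane, was at -0.04 ± 0.11 in old and -0.01 ± 0.11 in young cells (limma adjusted p = 0.736 and 0.952), and was called lower with loess at both ages (-0.31 in old and -0.36 in young cells) and with scaling in young cells (-0.25). Of the 5 tested relatives of the carriers, 2 were higher and 2 lower in old cells, and 2 higher and 1 lower in young cells (median -0.04 and -0.01, against -0.10 and -0.12 over all genes). The testis subunit gene Ldhc was at -0.39 ± 0.10 in old and -0.22 ± 0.10 in young cells, called lower in old and not called in young cells (-0.46 in young cells and called with scaling).

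Around pyruvate dehydrogenase, culture moved the other kinases in opposite directions. Pdk3 rose by 1.95 ± 0.14 in old and 2.42 ± 0.14 in young cells, and Pdk2 fell (-1.86 ± 0.16 in old and -1.58 ± 0.16 in young cells). Dlat and Pdha1, subunits of the complex itself, rose, with Dlat, its acetyltransferase core, at 1.92 ± 0.09 in old and 2.32 ± 0.09 in young cells and Pdha1, the subunit that the kinases phosphorylate, at 0.83 ± 0.08 in old and 0.91 ± 0.08 in young cells. Without Pdk1 itself, 6 of 9 tested genes of this list were higher and 3 lower in old cells, and 5 were higher and 2 lower in young cells (median 0.47 and 0.37). Mpc1, a subunit of the mitochondrial pyruvate carrier, fell in old cells (-0.48 ± 0.14) and was at -0.18 ± 0.14 in young cells, where it was called lower with scaling (-0.41) and loess (-0.49). Me1, the cytosolic malic enzyme, rose by 2.38 ± 0.19 in old and 2.98 ± 0.19 in young cells.

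The citric acid cycle genes rose with culture for 12 of 14 tested members at each age and fell for 0 (median 0.88 in old and 1.09 in young cells), for example Fh1, fumarate hydratase, at 1.03 ± 0.13 in old and 1.53 ± 0.13 in young cells. Suclg1, a subunit of succinyl-CoA ligase, rose by 1.19 ± 0.15 in old and 1.55 ± 0.15 in young cells. With scaling 10 were called higher and 1 lower in old and 11 higher and 0 lower in young cells, and with loess 9 higher and 1 lower in old and 10 higher and 1 lower in young cells. Glycolysis genes had 9 of 16 higher and 2 lower in old cells, and 9 higher and 1 lower in young cells (median 0.34 and 0.43). Slc2a1, the glucose transporter GLUT1, rose by 1.69 ± 0.26 in old and 2.36 ± 0.26 in young cells, and Pgk1, phosphoglycerate kinase, by 2.0 ± 0.11 in old and 2.18 ± 0.11 in young cells. Gpd2, the mitochondrial enzyme of the glycerol phosphate shuttle that carries electrons from cytosolic NADH, rose by 2.22 ± 0.19 in old and 2.86 ± 0.19 in young cells. The NADH shuttle list had 5 of 8 higher and 2 lower in old cells, and 6 higher and 1 lower in young cells (median 0.67 and 0.91).

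Other HIF target genes went both ways with culture, as did the tested genes as a whole. Over all tested genes 30.2% were called higher and 32.5% lower in old cells, and 32.6% higher and 38.6% lower in young cells. Of 16 tested, 4 were higher and 4 lower in old cells, and 6 were higher and 5 lower in young cells (median 0.10 and -0.02, against -0.06 and -0.26 with scaling). Ak4, an adenylate kinase, rose by 2.85 ± 0.27 in old and 2.77 ± 0.27 in young cells, and Egln3, a prolyl hydroxylase of HIF, by 2.37 ± 0.35 in old and 2.56 ± 0.35 in young cells. Ndrg1, a stress-responsive gene, fell (-3.66 ± 0.14 in old and -3.13 ± 0.14 in young cells). Among regulators, Hif1a rose by 1.37 ± 0.19 in old and 1.02 ± 0.19 in young cells, while Arnt, its dimer partner, fell (-0.87 ± 0.14 in old and -1.16 ± 0.14 in young cells). Targets of PPAR, FOXO and glucocorticoid receptors that are known to move with Pdk4 in other tissues had 10 of 15 lower and 2 higher in old cells, and 10 lower and 4 higher in young cells (median -0.65 and -0.88). Among these, Zbtb16, a zinc finger gene induced by glucocorticoids, fell (-3.91 ± 0.37 in old and -3.69 ± 0.37 in young cells), and so did Txnip, an inhibitor of glucose uptake (-2.48 ± 0.19 in old and -2.32 ± 0.19 in young cells). Of the regulators, Nr3c1, the glucocorticoid receptor, fell (-1.56 ± 0.17 in old and -1.58 ± 0.17 in young cells), while Pparg, a nuclear receptor of the PPAR family, rose by 2.76 ± 0.28 in old and 2.71 ± 0.28 in young cells. In the list of 13 tested regulators, 5 were higher and 4 lower in old cells, and 5 were higher and 5 lower in young cells (median 0.02 and 0.09, against -0.14 and -0.15 with scaling).

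**Figure D5:**
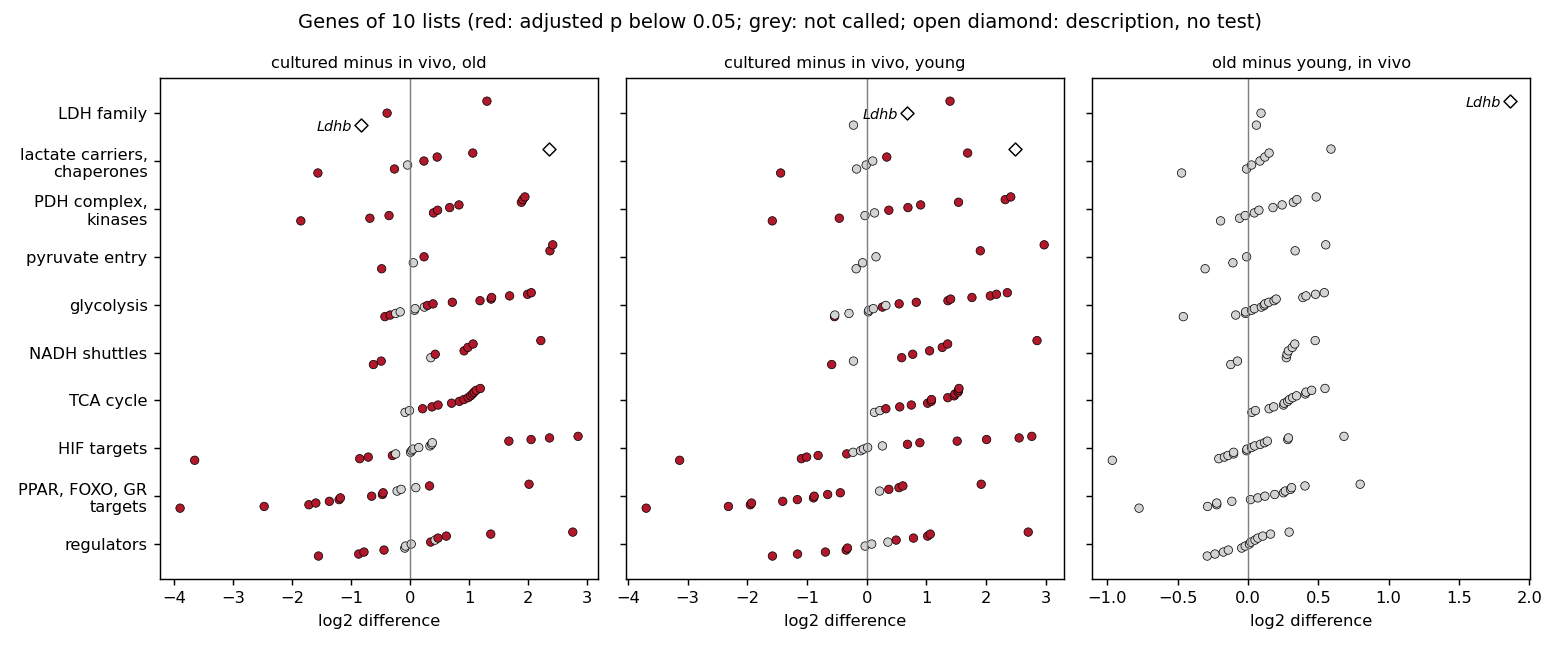
Log2 differences (horizontal axes) of the tested genes of 10 pathway lists (rows) for culture at each age and for age in vivo; red points passed an adjusted p of 0.05, grey points did not, and open diamonds are Ldhb and Slc16a3 where their values are description without a test. For age in vivo, none of the other genes is red, and Ldhb lies at 1.87.

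Genes with the most similar pattern were taken by Pearson correlation of log2 values over the 16 arrays, which fall into cultured and in vivo clusters, so that these values largely follow the culture difference. Ldha was closest to Ncs1 (r = 0.997), Ccn2 (0.996) and Trmt10a (0.995). Slc16a3 was closest to Rgs16 (0.991), Bpgm (0.991) and the glycolytic phosphofructokinase gene Pfkl (0.990), and Pdk1 to Prelid2 (0.983), Rai14 (0.983) and Ak4 (0.982). Slc16a1 had lower values, with Zfp622 (0.916), Zfp9 (0.850) and Nnmt (0.824). For Ldhb the closest were 0610010K14Rik (0.869), Klc1 (0.862) and Plaat3 (0.853). Over the 8 in vivo arrays, Ldhb was closest to Sri (0.988), Gstt1 (0.985), Abcb1b (0.978), Cfb (0.972) and Tent5b (0.971). Ldhb separates the old from the young arrays there, so these values largely follow the age difference that was known when it was chosen.

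Markers of other cells differed with age in vivo in part of the lists. The summed intensity of 6 pericyte and smooth muscle markers was 8.42 to 9.19 (log2) in old and 8.11 to 8.41 in young in vivo cells, without overlap. That sum is carried by Kcnj8, a potassium channel gene and the 1 of the 6 that was called (8.23 in old and 7.17 in young, difference 1.06 ± 0.22, limma adjusted p = 0.0494), while the median difference of the 6 was -0.08. The sum of 10 endothelial markers was 8.61 to 9.51 in old and 8.41 to 8.77 in young cells, with 0 of 10 called and 3 of 10 in old and 4 of 10 in young cells averaging at or below 4.34. Its brightest members were Kdr, a VEGF receptor gene, at 7.34 in old and 6.57 in young cells (0.77 ± 0.34, limma adjusted p = 0.327), and Tek, an angiopoietin receptor gene, at 6.99 in old and 6.32 in young cells (0.67 ± 0.38, limma adjusted p = 0.450). The sum of 12 macrophage and monocyte markers was 8.96 to 9.36 in old and 8.96 to 9.72 in young cells, 7 of 12 at or below 4.34 at both ages, with Csf1r lower in old cells (-1.08 ± 0.15, limma adjusted p = 0.00995). Pecam1 of endothelium averaged 4.37 in old and 4.34 in young in vivo cells, and Cd3e of T cells 4.14 in old and 4.13 in young in vivo cells. The sum of 11 keratinocyte markers was 10.6 in old in vivo replicate 1 and 8.93 to 9.09 in the other old in vivo arrays, against 8.78 to 9.12 in young. Without that array the in vivo age difference of Ldhb was 1.83 and that of the balance was -1.77. The part of other cell types in the level of Ldhb was not tested. With culture, 9 of 10 fibroblast markers were called lower at each age, and their summed intensity averaged 13.82 in old cultured and 13.85 in young cultured, against 14.96 in old in vivo and 14.95 in young in vivo cells. Markers of other cells were mostly lower in culture or not called. Over all tested genes 32.5% were called lower in old and 38.6% in young cells. Of 10 tested keratinocyte markers 5 were lower in old cells, and 3 were lower and 1 higher in young cells. Of 2 tested erythroid markers 1 was lower in old cells, and 1 was lower and 1 higher in young cells. Of the macrophage and monocyte markers 6 of 9 tested were lower in old and 8 of 9 in young cells, of the melanocyte markers 6 of 6 in old and 5 of 6 in young cells, of the endothelial markers 5 of 10 in old and 6 of 10 in young cells, and of the Schwann cell markers 3 of 4 at each age, with 0 higher in these lists. With loess the macrophage and monocyte counts were 5 in old and 4 in young cells, and the melanocyte counts 4 at each age. Endothelial counts were then 4 at each age and Schwann cell counts 2, each list with 1 marker higher in young cells. In old cultured cells 6 of 10 endothelial and 9 of 12 macrophage and monocyte markers averaged at or below 4.34. In young cultured cells these counts were 7 and 10. Of 8 tested skeletal muscle markers 2 were lower in old and 5 in young cells and 1 was higher at each age, Acta1, an actin gene (4.75 ± 0.22 in old and 5.26 ± 0.22 in young cells). Of the adipocyte markers Fabp4 alone passed the filter, and was higher (3.73 ± 0.50 in old and 4.91 ± 0.50 in young cells), while Adipoq averaged 3.33 in old cultured and 3.32 in young cultured, against 3.55 in old in vivo and 3.4 in young in vivo cells. Of 6 tested pericyte and smooth muscle markers 2 were higher and 2 lower in old cells, and 2 higher and 3 lower in young cells. The higher ones were Myh11 and Mcam. Myh11 averaged 8.41 in old cultured and 9.25 in young cultured, against 4.46 in old in vivo and 4.49 in young in vivo cells. The part of other cell types in the culture results was not tested.

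A measure of RNA quality, the 3′ minus 5′ control probe set difference, moved with culture for beta-actin. It was 0.10 ± 0.07 in old cultured, 0.07 ± 0.04 in young cultured, -0.46 ± 0.11 in old in vivo and -0.41 ± 0.07 in young in vivo cells (SD, n = 4). For Gapdh it was -0.15 ± 0.02 in old cultured, -0.11 ± 0.06 in young cultured, -0.15 ± 0.02 in old in vivo and -0.08 ± 0.04 in young in vivo cells, the in vivo ages without overlap (-0.17 to -0.13 in old, -0.12 to -0.04 in young). The part of RNA quality in the culture changes was not tested.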

How the data were processed

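RNA of 5000 dermal fibroblasts per sample was amplified over 23 cycles and hybridised to an Affymetrix mouse array, per the labels' protocols. The deposited table holds 45141 probe sets on 16 arrays as log2 intensities, made with RMA and the package affy per the submitters' processing notes. No source used here gives their versions, the log base (taken as 2 from the range 2.7 to 13.08) or whether all arrays were normalised together. Array medians lay between 4.74 and 4.92, no arrays were identical, and the number of arrays limits the precision.

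Probe sets with 1 gene symbol (28898; 551 had several and 15692 none listed) were named from the platform annotation and updated by gene ID through RefSeq (GRCm38.p6). Each gene took its probe set of highest mean. Genes with at least 4 arrays above 3.87, the 25th percentile of all values, were tested with limma 3.58.1 (R 4.3.3), two-sided, with Benjamini-Hochberg adjustment over 14819 genes and a threshold of 0.05. Culture contrasts and the interaction used all 16 arrays. Age contrasts used the 8 arrays of their condition, because the median residual SD was 0.185 in vivo and 0.129 in culture. The model was tested on simulated data with equal group means, independent normal noise and changes in 200 of 14819 genes. There it recovered 74% to 93% of changes of 1 log2 unit. Of changes of 0.5 it recovered 25% for age in vivo, 26% for the interaction and 47% to 61% otherwise, with 5.26% to 11.5% of calls false. Far more genes were called for culture in the real data (9301 in old and 10550 in young cells), so these shares need not hold there.

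Groups follow the labels. Cultured and in vivo samples came from the same mice but cannot be matched, so the culture tests treat them as independent. The members and lists were chosen with earlier results of these data known. Named genes are the members, up to 4 called genes per list and contrast with the largest changes, and the genes of closest pattern. Bsg, Pdha1 and the marker genes were named after their values were seen. Alternatives were 75th-percentile scaling, cyclic loess, no filter or a stricter one, the mean over probe sets, another model of the spread, leaving out each array, and a fit of every probe set.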

Additional observations from a re-analysis of the deposited data

Results flagged for a closer look

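Ldhb was singled out because its culture difference had opposite signs at the ages: all cultured arrays lay below all in vivo arrays in old cells and above them in young cells, and the change in old less that in young cells was -1.51 ± 0.20 (log2, SE). The difference was not tested, because the gene was chosen with its in vivo values known. The cultured means, 7.32 in old and 6.96 in young cells, lay between the in vivo means of 8.15 in old and 6.28 in young cells. The opposite signs therefore largely restate the in vivo gap by which the gene was chosen. How many of all tested genes share them was not computed. Among 28 groups of 4 arrays screened (the 6 genes and the balance in 4 groups), no array stood apart from its group by Dixon's criterion.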

How the results depend on the processing

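Of 609 values recomputed under the alternatives, 577 stayed on their side of the threshold or, where no test was given, moved by less than the replicate SD (1.5 times for counts), 11 lost a call and 21 moved further. No called value changed sign. Among values that were not called, 16 did, reaching up to 0.25 in size: Slc16a1 for culture in young (4), Slc16a3 for age (3 in vivo and 1 in culture) and for the interaction (1), Pdk4 for culture in old (4) and age in vivo (2), and Pdk1 for age in vivo with the mean over probe sets (0.13, against -0.20). All 11 lost calls were Slc16a1 for culture in old cells: 0.30 with 75th-percentile scaling, 0.20 with cyclic loess, 0.46 with no filter, 0.18 with the mean over probe sets, and 0.31 to 0.49 without 7 of the 8 arrays in turn; the range over all 8 was 0.31 to 0.67, and the call held at 0.67, without old in vivo replicate 3. Slc16a3 for culture in young moved to 2.25 with scaling and 2.14 with loess, Pdk4 for culture in young to -0.41 with scaling, and Ldhb with loess to 0.42 (culture in young) and -1.02 (culture in old). The 200 genes called for age in vivo became 900 with a spread shared over all 16 arrays. Leaving out 1 array gave 306 without old in vivo replicate 1, 66 without replicate 2, 100 without 3 and 118 without 4, and 132, 60, 67 and 96 without young in vivo replicates 1 to 4. The 87 interaction calls became 200 without old in vivo replicate 1, 161 without young in vivo replicate 1, 48 and 53 without old cultured replicates 2 and 4, and 55, 55 and 44 without young cultured replicates 1, 2 and 4. Of the calls for age in vivo 67.5% were higher, against 43.9% with scaling and 51.1% with loess, and of the interaction calls 33.3%, against 55.9% with scaling and 45.2% with loess. The in vivo age difference of Ldhb lay between 1.78 and 1.98 under these alternatives and at 2.01 on its second probe set. The causes were not tested. The fit of every probe set and the rescaled values of the pathway lists were added after seeing the data. No paired analysis was possible because the labels tie no sample to a mouse or day, and the replicate numbers only name samples.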
